A study of Mus musculus with 6 samples.

Results

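The lysosome is described here through 49 genes, which encode 20 soluble hydrolases, 6 membrane proteins, 2 activator proteins with progranulin, 6 factors that sort or switch on the enzymes or control their transcription, and 14 parts of the proton pump. They were chosen by gene symbol, not by a measured value, and all 49 were found among the 16665 genes of the deposited table. The cells were RAW264.7, a mouse macrophage-like line that grew from a leukaemia, so the values come from a single tumour line and not from primary macrophages. The first group received a miR-125b mimic, a synthetic copy of that microRNA (3 libraries, genotype given as overexpression), and the second received a negative control (NC, 3 libraries, genotype given as wild type for miR-125b). Both groups were transfected. The labels give neither the arm or dose of the mimic nor the time after transfection, and the microRNA was not measured by these libraries, so the transfection itself has no check here. The labels name no separate cultures, and the p-values below reflect how these libraries vary among themselves, a spread that may be technical.

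Lysosomes are acidic compartments in which proteins, lipids, glycogen and complex sugars are broken down, and macrophages use them to digest what they engulf. The acid is made by the vacuolar ATPase (V-ATPase), a rotary pump whose cytosolic V1 part splits ATP while its membrane-embedded V0 part carries protons across. Most hydrolases receive a mannose 6-phosphate tag in the Golgi, are carried onward by receptors for that tag, and work only in acid. The transcription factors TFEB and TFE3 act on many of these genes together through a promoter element named CLEAR (coordinated lysosomal expression and regulation).

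Values are FPKM, the number of sequenced fragments per kilobase of gene, scaled to library size, and the libraries hold 14.4 to 16.8 M fragments each (M, mega). Genes were tested with limma on log2(FPKM + 1), and a gene is called when its Benjamini-Hochberg adjusted p over all 10166 tested genes is under 0.05. A log2 fold change (the estimate) is mimic minus control on that scale, and SE is the standard error from the same fit. The 2 libraries numbered 3 stood apart. The SD over genes of the difference in log2(FPKM + 1) was 0.188 between controls 1 and 2 and 0.215 between mimics 1 and 2. It was 0.563 and 0.556 from control 3 to the other controls, and 0.334 and 0.345 from mimic 3 to the other mimics. From control 3 to mimic 3 it was 0.385. Control 3 also had fewer genes above 0 FPKM, 13266 against 15141 to 15470 in the other libraries. Results are therefore given with all 6 libraries and, for many members, again without control 3. That library was singled out because its values stood apart, while mimic 3 was kept. The p-values without control 3 do not allow for this choice. Of the 9 macrophage markers, 8 passed the filter, all with estimates below 0 and none called. Without control 3, limma called 3 of the 8 lower, Cd68 (−0.50), Lyz2 (−0.39) and Spi1 (−0.28), where 23.7% of all tested genes were called in either direction. With all libraries their summed level was 7136 to 8616 FPKM in controls and 6379 to 6650 FPKM with the mimic. Most of that sum was lysozyme (Lyz2), and the part of these markers in the results below was not tested. Of 15 markers of T cells, B cells, epithelium, fibroblasts and endothelium, the 5 with a value summed to between 0 and 0.654 FPKM per library.

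No lysosomal gene was called with all 6 libraries at equal weight. By limma 0 of the 49 passed, as did 0.0% of all tested genes, and the smallest adjusted p among them was 0.332. At an unadjusted p under 0.05 there were 6 members, 12.2% of the 49 against 13.2% of all tested genes. Of these, 3 were higher (7.96% of all tested genes) and 3 lower (5.26%). Limma voom on recovered fragments also called 0 members. With each library weighted by its fit to its group, and the lowest weight on control 3, limma called 29 members and 51.9% of all tested genes. Estimates were above 0 for 23 and below 0 for 26, with a median log2 fold change of −0.01 where that of all tested genes was 0.04. The groups did not overlap in 9 members (18.4%) and in 20.1% of all tested genes. The mimics were the upper group in 5 of the 9 (12.6% of all tested genes) and the lower in 4 (7.49%). At equal weight, the shares of members at an unadjusted p under 0.05 and without overlap are close to the background. In bulk RNA, a lower level of a lysosomal gene cannot be told apart from fewer cells that express it.

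**Figure D1:**
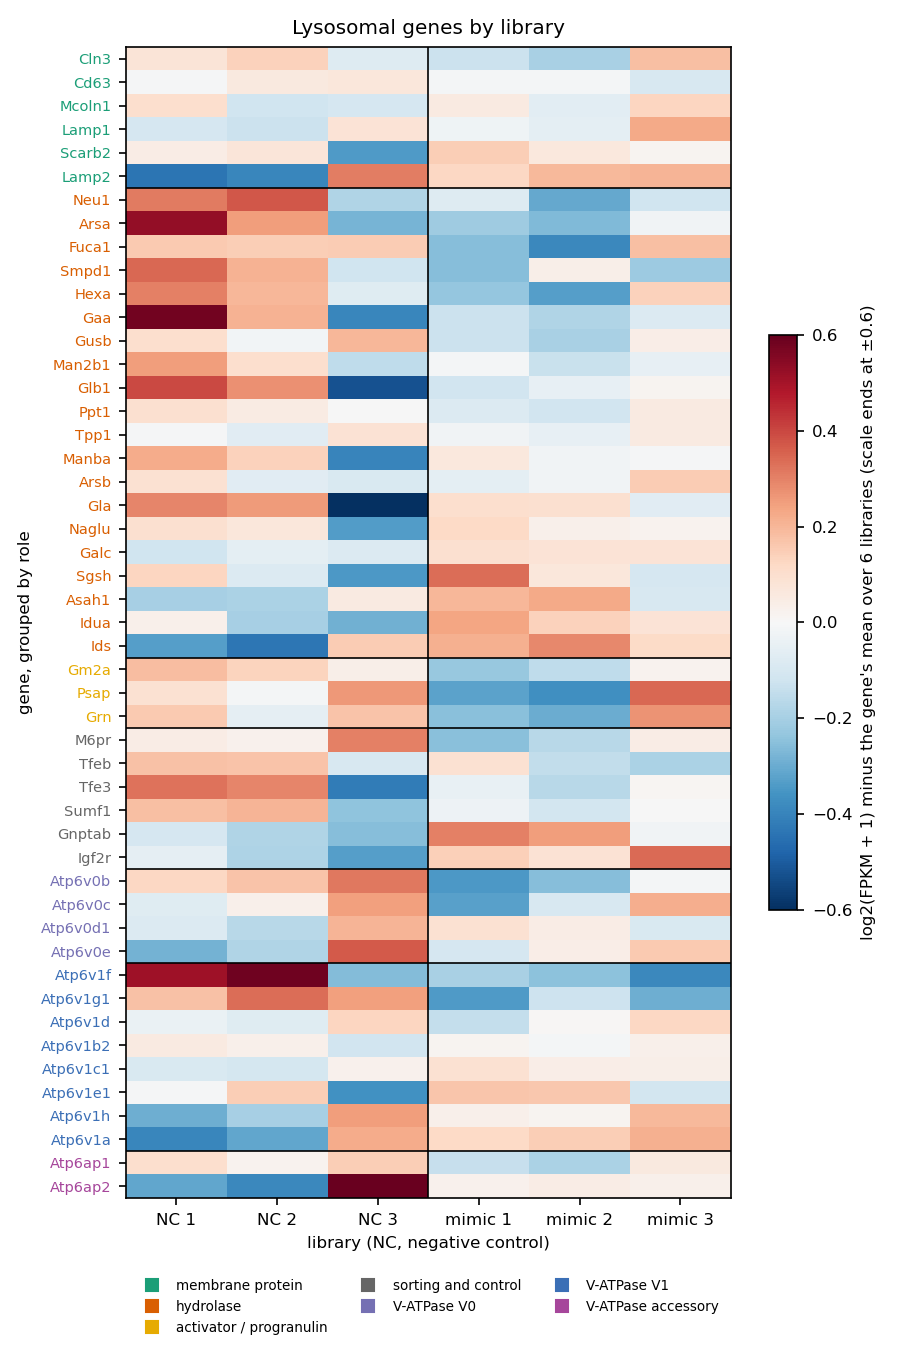
Level of each of the 49 genes (rows, grouped by role and coloured by it) in each library (columns), as log2(FPKM + 1) minus the gene's mean over the 6 libraries; red is above that mean, blue below, and the colour scale ends at 0.6 on either side. Control 3 departs from controls 1 and 2 in many rows, among them Lamp2, Gla and Atp6ap2, and the prosaposin and progranulin rows are high in mimic 3.

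Subunits of the proton pump pointed in both directions. The median log2 fold change of its 14 genes was 0.03, with 8 estimates above 0 and 6 below, from −0.55 (Atp6v1f) to 0.32 (Atp6v1a). The 3 members with an unadjusted p under 0.05 were all lower: Atp6v1g1, Atp6v1f and Atp6v0b. Their longest coding transcripts have 1135, 806 and 1000 bases and are the shortest of the 14.

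Atp6v1g1 (ENSMUSG00000039105; GRCm38 chromosome 4, 63544772 to 63550750) encodes the G subunit of the peripheral stalk that holds V1 to V0. It read 99.6, 111 and 104 FPKM in controls 1 to 3 and 69.3, 80.6 and 71.5 FPKM in mimics 1 to 3. All 3 mimic values lay below all 3 controls, and control 3 did not stand apart for this gene. The estimate was −0.51 (SE 0.11, limma adjusted p = 0.332), and −0.51 without control 3 (adjusted p = 0.0139). After the trend of expression on transcript length and GC content was removed from each library (detrending), it was −0.41 with all 6 libraries (limma adjusted p = 0.595) and −0.42 without control 3 (adjusted p = 0.0492).

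Atp6v1f encodes the F subunit of the central shaft that turns inside V1. It read 83.2, 87.5 and 48.4 FPKM in controls and 50.6, 48.8 and 44.1 FPKM with the mimic. Control 3 lay among the mimics, and controls 1 and 2 were far above all other libraries. The log2 fold change was −0.55 (SE 0.22) with all 6 libraries, where limma did not call it (adjusted p = 0.364), and −0.82 without control 3 (adjusted p = 0.00524). Detrended, it was −0.34 with all 6 libraries (limma adjusted p = 0.754) and −0.55 without control 3 (adjusted p = 0.0327). It and Atp6v1g1 were the 2 members called when detrended without control 3 (of all tested genes 2.49% were called, 1.84% in this direction).

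Atp6v1a, the catalytic A subunit that binds and splits ATP, had the highest mean level of the 14 pump genes and pointed the other way. It read 148, 157 and 227 FPKM in controls and 212, 216 and 226 FPKM with the mimic. Control 3 lay above all mimics and the other controls below them, so the groups overlap. The log2 fold change was 0.32 (SE 0.17, limma adjusted p = 0.461) and 0.51 without control 3 (adjusted p = 0.00720). Atp6v1h, the regulatory H subunit, also had control 3 highest and controls 1 and 2 lowest, with a log2 fold change of 0.16 that became 0.33 without control 3 (limma adjusted p = 0.0446). Neither was called once the length and GC trend was removed too (0.29 and 0.15, limma adjusted p = 0.0920 and 0.429).

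The other V1 subunits were closer to level. Atp6v1b2, the nucleotide-binding B subunit, read 45.3, 44.6 and 40.1 FPKM and 44.1, 43.2 and 44.5 FPKM, a log2 fold change of 0.02 (SE 0.10) that was −0.03 without control 3. The A and B subunits, which alternate in the same ring, thus read 177 ± 43.6 and 43.3 ± 2.79 FPKM in controls (SD, n = 3). Control 3, at 227 FPKM, raised the mean of the A subunit. FPKM here divides by all annotated exon bases, 6044 for Atp6v1a and 5305 for Atp6v1b2. Their longest coding transcripts have 4234 and 2825 bases, so the 2 levels are hard to compare. Atp6v1c1, Atp6v1d and Atp6v1e1, parts of the stalks, had log2 fold changes of 0.11, −0.01 and 0.15. Without control 3 those of Atp6v1d and Atp6v1e1 were 0.05 and 0.00. For Atp6v1c1 the mimic values of 34.1, 32.9 and 32.8 FPKM lay just above the 29.9, 29.6 and 32.5 FPKM of the controls.

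In the V0 part, Atp6v0b had the smallest p of the 4 genes. It encodes the c″ proteolipid of the proton-carrying ring and read 73.2, 75.7 and 83.6 FPKM in controls and 52.6, 56.00 and 66.6 FPKM with the mimic. The groups did not overlap, and control 3 was the highest library. On the log2 scale the fold change was −0.41 (SE 0.13, limma adjusted p = 0.332); without control 3 it was −0.35 (adjusted p = 0.0602). After detrending for length and GC it was −0.12, and 0.02 without control 3 as well. Atp6v0c, the c proteolipid of the same ring, read 15.6, 16.8 and 19.7 FPKM and 12.9, 15.3 and 19.3 FPKM, with overlapping groups. Its estimate was −0.14 (SE 0.17), −0.05 without control 3, and 0.17 with the trend removed. It has 2 annotated pseudogenes named after it, so its reads may be shared and the value is uncertain.

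Atp6v0e, a small membrane subunit, was the highest V0 gene by its mean over all libraries. It read 56.8, 61.1 and 89.95 FPKM in controls and 64.7, 71.3 and 77.4 FPKM with the mimic. Control 3 was the highest of the 6, and without it the estimate went from 0.06 to 0.26 (limma adjusted p = 0.0855). Atp6v0d1, which links the ring to the central shaft, read 62.9, 59.2 and 76.9 FPKM and 71.1, 68.7 and 62.4 FPKM, a log2 fold change of 0.03 (SE 0.13) that was 0.14 without control 3. Detrended, its estimate was 0.23 with all 6 libraries and 0.40 without control 3 (limma adjusted p = 0.0616).

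Accessory proteins had estimates on either side of 0. Atp6ap2, the prorenin receptor needed for pump assembly, read 81.02, 77.1 and 153 FPKM in controls and 103, 104 and 103 FPKM with the mimic. The mimics were nearly level, while control 3 stood far above controls 1 and 2, and the group means were 104 ± 42.7 and 103 ± 0.731 FPKM (SD, n = 3). As log2 fold change this was 0.07 (SE 0.25) with all libraries, 0.38 without control 3 (limma adjusted p = 0.0112), and turned to −0.07 and −0.11 without control 1 or control 2. A direction for this gene rests on which control is kept. Atp6ap1, a chaperone of V0, read 78.1, 73.8 and 80.6 FPKM and 65.9, 63.5 and 75.8 FPKM, a log2 fold change of −0.18 (SE 0.11, limma adjusted p = 0.507).

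**Figure D2:**
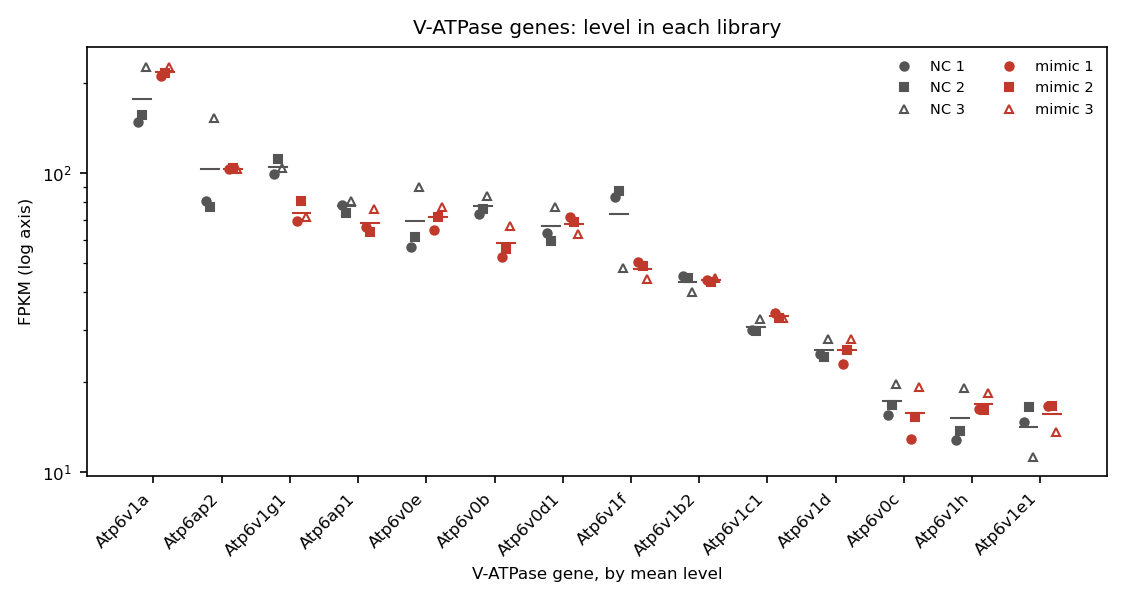
FPKM (log axis) of the 14 V-ATPase genes in each library, ordered by their mean over the 6 libraries; grey marks are controls, red marks mimics, open triangles the libraries numbered 3, and bars the means of 3 libraries. For Atp6v1a, Atp6v1f and Atp6v1h control 3 sits with the mimics, and for Atp6ap2 it lies above every other library.

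The level of pump transcripts spanned from 14.9 FPKM (Atp6v1e1) to 198 FPKM (Atp6v1a) over all libraries. Below Atp6v1a the order ran Atp6ap2, Atp6v1g1, Atp6ap1, Atp6v0e, Atp6v0b, Atp6v0d1 and Atp6v1f, from 104 to 60.4 FPKM, and the libraries of neighbours in this order overlapped. Atp6v1b2 (43.6), Atp6v1c1 (32.0) and Atp6v1d (25.6 FPKM) followed without overlap between them, and Atp6v0c (16.6), Atp6v1h (16.1) and Atp6v1e1 again lay together. The recovered depths show that the deposited FPKM divides by all annotated exon bases of a gene. Levels of genes with many annotated exon bases outside the coding transcript are therefore hard to compare with the others. Atp6v0c has 3384 exon bases, against 1183 in its longest coding transcript, and the use of the other exons was not measured.

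Hydrolases pointed in both directions. Of the 20, estimates were above 0 for 9 and below 0 for 11, with a median log2 fold change of −0.05 and a range from −0.34 (Neu1) to 0.41 (Ids). With all 6 libraries limma called 0, and at an unadjusted p under 0.05 only Ids. Without control 3, 6 of the 20 were called: Ids higher, and Neu1, Gaa, Glb1, Arsa and Smpd1 lower. Over all 49 members 13 were called under that setting (26.5%, where 23.7% of all tested genes were), 5 higher (11.6% of all tested genes) and 8 lower (12.2%). Without mimic 3 as well, a setting chosen after seeing the data, 29 members (59.2%) and 43.1% of all tested genes were called. Of the 29 members 9 were higher and 20 lower, while of all 10166 tested genes 2353 were higher and 2024 lower. Among the 20 hydrolases 2 were called higher and 9 lower in that setting. In 14 of the 20 hydrolases (70.0%) control 3 was closer to the mimic mean than to controls 1 and 2, as in 65.2% of all tested genes.

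Among enzymes that break down glycosaminoglycans, the 2 that act on iduronate had the smallest p. Ids, iduronate 2-sulfatase, removes sulfate from heparan and dermatan sulfate and is lost in Hunter syndrome. It read 7.03, 6.47 and 10.2 FPKM in controls and 10.7, 11.3 and 9.95 FPKM with the mimic. Control 3 overlapped the mimics and the other controls were lower. The log2 fold change was 0.41 (SE 0.17, limma adjusted p = 0.368), 0.59 without control 3 (adjusted p = 0.00992) and 0.19 after detrending for length and GC. Idua, the iduronidase that acts next, read 5.38, 4.44 and 4.12 FPKM in controls and 6.37, 5.87 and 5.61 FPKM with the mimic, so all mimics lay above all controls. Its log2 fold change of 0.30 (SE 0.13, limma adjusted p = 0.385) was 0.24 without control 3 and 0.38 with the trend removed. Other enzymes of this kind include Gusb (−0.19), Naglu (0.11), Sgsh (0.20) and Arsb (0.05), given as log2 fold changes with overlapping groups. Without control 3, Naglu turned to −0.02, Sgsh was 0.08 and Arsb 0.01, while Gusb was −0.14. Detrended with all 6 libraries, Naglu was 0.34, Sgsh 0.28, Arsb 0.03 and Gusb −0.09. Idua shares 124 and 141 exon bases with Dgkq and Slc26a1, protein-coding genes on the opposite strand, which themselves read 0.92 and 0.084 FPKM. Sgsh, at 1.57 FPKM, shares 955 exon bases with Card14, a protein-coding gene on the opposite strand at 0.419 FPKM.

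Neu1, the sialidase that removes terminal sialic acid, read 28.5, 29.8 and 19.98 FPKM in controls and 21.5, 18.2 and 20.8 FPKM with the mimic. Controls 1 and 2 were high, and control 3 lay among the mimics. Its log2 fold change was −0.34 (SE 0.17, limma adjusted p = 0.432) and −0.51 without control 3 (adjusted p = 0.0139), while the trend-removed value was −0.14. Fuca1, the fucosidase, read 20.3, 20.2 and 20.2 FPKM in controls and 15.00, 13.6 and 20.6 FPKM with the mimic. The 3 controls were nearly identical and mimic 3 was level with them, with mimics 1 and 2 lower. The log2 fold change was −0.31 (SE 0.16, limma adjusted p = 0.446), and −0.47 without mimic 3. Man2b1 and Manba, the mannosidases, stood at −0.13 and 0.02, and without control 3 at −0.24 and −0.17.

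Hexa, the alpha subunit of the hexosaminidase that degrades GM2 ganglioside, was the highest hydrolase at a mean of 241 FPKM. It read 293, 273 and 226 FPKM in controls and 202, 189 and 262 FPKM with the mimic. Mimic 3 lay above control 3, so the groups overlap, with mimics 1 and 2 lowest. The log2 fold change was −0.29 (SE 0.17, limma adjusted p = 0.487) and −0.39 without control 3 (adjusted p = 0.0909). After detrending for length and GC it was −0.08. Smpd1, acid sphingomyelinase, read 8.65, 7.81 and 6.01 FPKM in controls and 5.37, 6.80 and 5.55 FPKM with the mimic, a log2 fold change of −0.29 (SE 0.16). Without control 3 it was −0.42 (limma adjusted p = 0.0495), at the edge of the threshold.

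The remaining sphingolipid enzymes were split. Asah1, acid ceramidase, and Galc, which degrades galactosylceramide, had log2 fold changes of 0.22 and 0.17, or 0.30 and 0.18 without control 3. The mimic values of Galc (2.61, 2.57 and 2.58 FPKM) lay above those of the controls (2.11, 2.24 and 2.19 FPKM). Arsa, which desulfates sulfatide, read 6.67, 5.35 and 3.40 FPKM and 3.59, 3.44 and 4.26 FPKM, with control 3 the lowest of all libraries. The estimate was −0.33, or −0.56 without control 3 (limma adjusted p = 0.0291). In Glb1 and Gla, the galactosidases, control 3 was far below the other 5 libraries. Glb1 read 25.3, 23.2 and 12.9 FPKM and 17.5, 18.3 and 19.2 FPKM, with a log2 fold change of −0.10 that became −0.38 without it (limma adjusted p = 0.0219). Gla read 17.7, 17.3 and 8.58 FPKM and 15.4, 15.3 and 13.6 FPKM, and its estimate went from 0.09 to −0.23 (limma adjusted p = 0.101).

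Gaa, which degrades glycogen, read 20.2, 15.3 and 9.78 FPKM in controls and 11.9, 11.5 and 12.4 FPKM with the mimic. The controls covered more than the whole range of the mimics. On the log2 scale the fold change was −0.26, and −0.53 without control 3 (limma adjusted p = 0.0271). Tpp1 is a peptidase and Ppt1 removes palmitate from proteins; in both the groups overlapped. Tpp1 read 87.7, 84.01 and 93.6 FPKM and 86.8, 84.97 and 91.3 FPKM (log2 fold change −0.01, or 0.03 without control 3), and Ppt1 86.4, 83.7 and 80.6 FPKM and 76.2, 74.7 and 83.9 FPKM (−0.09). Ppt1 shares 129 exon bases with Cap1, a protein-coding gene on the opposite strand that reads 269.6 FPKM. Part of the Ppt1 value may therefore belong to Cap1 if strand was not used in counting.

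**Figure D3:**
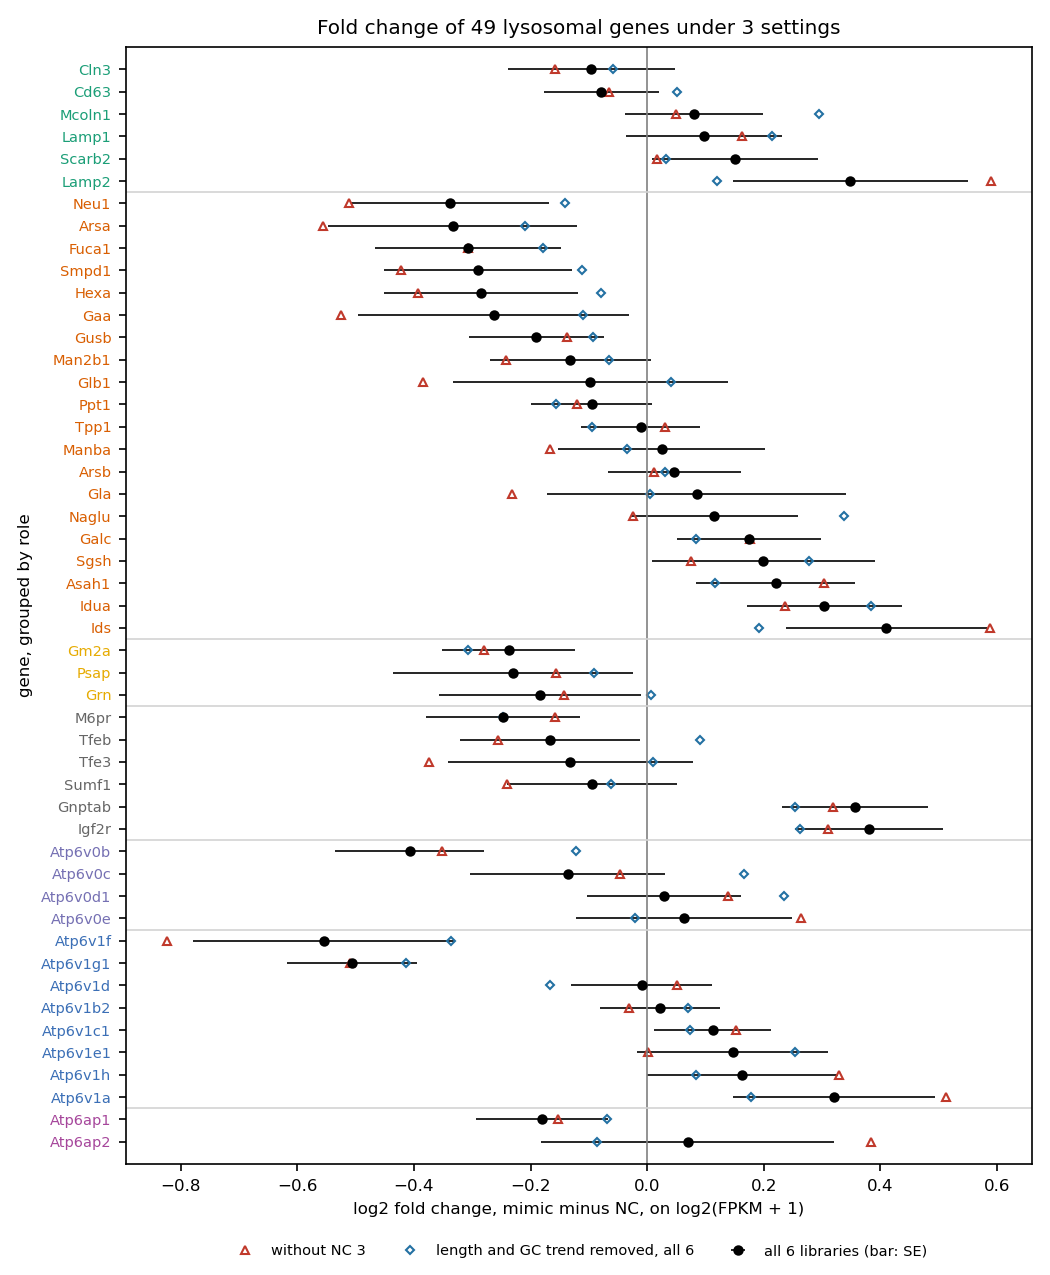
Log2 fold change (mimic minus control, on log2(FPKM + 1)) of the 49 genes, grouped by role; black points with SE bars use all 6 libraries, red triangles leave out control 3, and blue diamonds have the length and GC trend removed. Lamp2, Ids and Atp6v1a move to the right and Atp6v1f, Gaa and Glb1 to the left without control 3, while for Neu1, Lamp2 and Atp6v0b the diamonds lie nearer to 0 than the black points.

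Lysosomal membrane proteins had a median log2 fold change of 0.09, with 4 estimates above 0 and 2 below. Lamp2, a heavily glycosylated protein that lines the membrane and takes part in autophagy, had the smallest p of the 6. It read 52.3, 54.2 and 88.5 FPKM in controls and 77.9, 81.7 and 82.4 FPKM with the mimic. Control 3 was the highest of all 6 libraries and the other controls were the lowest. As log2 fold change this was 0.35 (SE 0.20, limma adjusted p = 0.487), 0.59 without control 3 (adjusted p = 0.00552), and 0.12 after detrending for length and GC. Its transcript has a GC content of 38.7%, the lowest of the 49.

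Lamp1, the partner of Lamp2 and the most abundant of the 49 transcripts, read 527, 516 and 598 FPKM in controls and 554, 543 and 662 FPKM with the mimic. Mimic 3 was the highest library and the other mimics lay within the controls' range, a log2 fold change of 0.10 (SE 0.13, limma adjusted p = 0.766) that was 0.16 without control 3. Detrended, it was 0.21 with all 6 libraries and 0.32 without control 3 (limma adjusted p = 0.151). Scarb2, which carries glucocerebrosidase to lysosomes, read 13.5, 13.8 and 10.1 FPKM and 14.6, 13.7 and 13.2 FPKM. Only control 3 stood out, and the estimate of 0.15 (SE 0.14) was 0.02 without it. The tetraspanin Cd63 read 40.9, 43.02 and 43.2 FPKM in controls and 40.9, 40.8 and 38.5 FPKM with the mimic, the 3 mimics just below the 3 controls. The difference was small, with a log2 fold change of −0.08 (SE 0.10), it turned to 0.05 with the trend removed, and Cd63 has a pseudogene. The calcium channel Mcoln1 (0.08, or 0.05 without control 3) and Cln3 (−0.10, or −0.16) had overlapping groups. Detrended, Mcoln1 stood at 0.29 with all 6 libraries and 0.33 without control 3 (limma adjusted p = 0.108). Cln3 stood at −0.06 and −0.09 in those settings. Cln3, at 6.58 FPKM, shares 442 exon bases with Apobr, a protein-coding gene on the opposite strand at a similar 4.57 FPKM.

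All 3 estimates for the activators and progranulin were below 0. Psap, the precursor of the saposins that present sphingolipids to hydrolases, read 394, 367 and 443 FPKM in controls and 295, 287 and 469 FPKM with the mimic. Mimics 1 and 2 were below all controls and mimic 3 was above all of them. Grn, progranulin, which is secreted and also cut into granulins in lysosomes, read 149.6, 129 and 151 FPKM and 113, 109 and 162 FPKM, with the same order. The log2 fold changes of −0.23 (SE 0.21) and −0.18 (SE 0.17) became −0.46 and −0.36 without mimic 3, and −0.16 and −0.14 without control 3. Gm2a, the activator that lifts GM2 ganglioside to hexosaminidase, read 61.02, 58.9 and 54.9 FPKM in controls and 45.6, 48.1 and 54.4 FPKM with the mimic. All mimics lay below all controls here. Its log2 fold change was −0.24 (SE 0.11, limma adjusted p = 0.414), and −0.31 after detrending for length and GC.

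Among the factors that sort and switch on the enzymes, 2 large genes of the mannose 6-phosphate route were higher at an unadjusted p under 0.05. Igf2r, the large receptor for tagged hydrolases, read 16.9, 15.4 and 13.8 FPKM in controls and 19.6, 18.8 and 22.6 FPKM with the mimic. Gnptab, the enzyme that starts the tag, read 27.2, 25.6 and 24.3 FPKM and 36.3, 34.9 and 28.8 FPKM. In both genes every mimic lay above every control. The log2 fold changes were 0.38 (SE 0.13, limma adjusted p = 0.332) and 0.36 (SE 0.13, limma adjusted p = 0.337). After detrending for length and GC they were 0.26 and 0.25, and without control 3 0.31 and 0.32, so direction held in each case and no call was made in either. M6pr, the smaller receptor for the same tag, pointed the other way. It read 79.8, 78.9 and 95.7 FPKM in controls and 64.9, 68.9 and 80.02 FPKM with the mimic, with mimic 3 inside the controls' range. The estimate was −0.25 (SE 0.13, limma adjusted p = 0.456), or −0.16 without control 3, and the gene has a pseudogene, so its reads may be shared.

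Tfeb and Tfe3, the transcription factors among the 49, read means of 2.29 and 8.92 FPKM over all libraries. With all libraries at equal weight neither was called. Tfeb read 2.70, 2.69 and 2.06 FPKM in controls and 2.49, 1.96 and 1.87 FPKM with the mimic. Mimic 1 lay within the controls, the other mimics just below, and the log2 fold change was −0.17 (SE 0.15, limma adjusted p = 0.658), or −0.26 without control 3. With a GC content of 63.2% its transcript is the richest in GC of the 49, and with the trend removed the estimate was 0.09. Tfe3 read 11.2, 10.98 and 6.30 FPKM in controls and 8.48, 7.71 and 8.84 FPKM with the mimic. Control 3 was the lowest library, and the log2 fold change of −0.13 (SE 0.21) became −0.37 without it (limma adjusted p = 0.0306). Sumf1, which activates sulfatases such as Ids and Arsa, stood at −0.10 (SE 0.15), and at −0.24 without control 3.

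Proton pump and hydrolases were compared library by library, as the median over genes of log2(FPKM + 1) minus each gene's mean over the 6 libraries. For hydrolases this median was 0.14, 0.08 and −0.14 in controls 1 to 3, and −0.04, −0.04 and 0.02 in mimics 1 to 3. For the pump it was −0.06, −0.03 and 0.21 in controls and −0.04, 0.01 and 0.03 in mimics. In control 3 the 2 groups lay furthest apart, with the pump high and the hydrolases low, and controls 1 and 2 had the opposite order. The pump minus the hydrolases was −0.20, −0.11 and 0.35 in controls and between 0.00 and 0.05 in mimics, so the mimics lay inside the controls' spread. The pump's median log2 fold change exceeded that of the hydrolases by 0.08 with all 6 libraries and by 0.18 without control 3, and it was below it by 0.08 without control 1. The spread between controls was set by control 3, and without it all 3 mimics lay above both remaining controls in pump minus hydrolases.

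**Figure D4:**
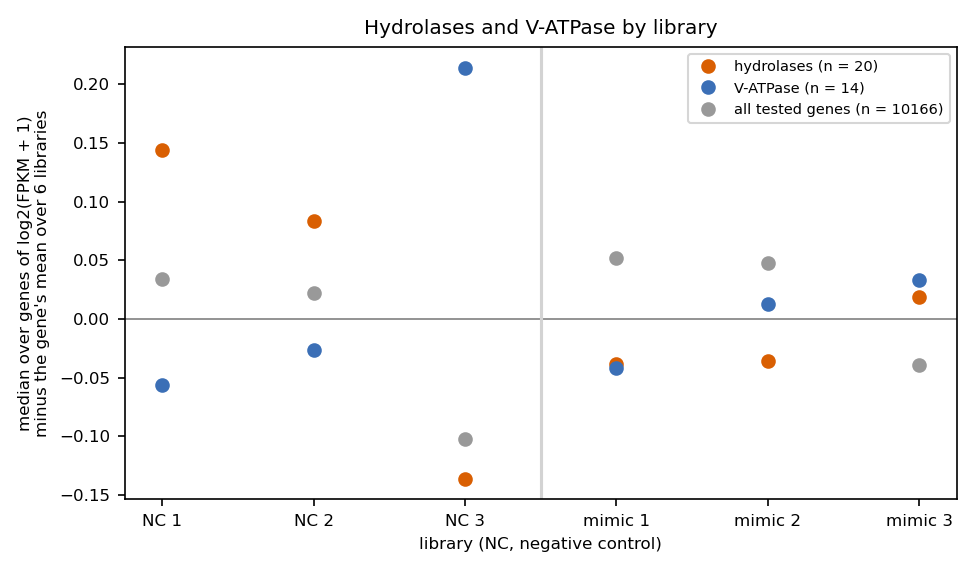
Median over the 20 hydrolases (orange), the 14 V-ATPase genes (blue) and all 10166 tested genes (grey) of log2(FPKM + 1) minus each gene's mean over the 6 libraries, 1 point per library. Control 3 has the pump at 0.21 and the hydrolases at −0.14, and in the mimics both lie within 0.05 of 0.

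Base composition of the transcripts went with the fold change. Of the 9 members with a GC content under 45%, 7 were above 0 and 2 below, with a median log2 fold change of 0.16. Of the 21 with 52% or more, 5 were above 0 and 16 below, with a median of −0.18. All tested genes in the same classes had medians of 0.22 and −0.13. Spearman's rho between GC content and fold change was −0.51 over the 49 genes and −0.57 over 10128 tested genes, as a description of these 6 shared libraries in which genes are not replicates. For transcript length it was 0.45 and 0.42. The members ran the same way as all tested genes. With the trend removed rho with GC content was −0.00 over the 49. The median GC content was 48.6% for the pump and 53.4% for the hydrolases. With the trend removed, the pump's median log2 fold change exceeded that of the hydrolases by 0.075 with all 6 libraries, against 0.078 as deposited. Without control 3 the excess was 0.174 with the trend removed and 0.179 as deposited. The part of base composition in single results was not tested beyond the trend-removed values given beside them.

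**Figure D5:**
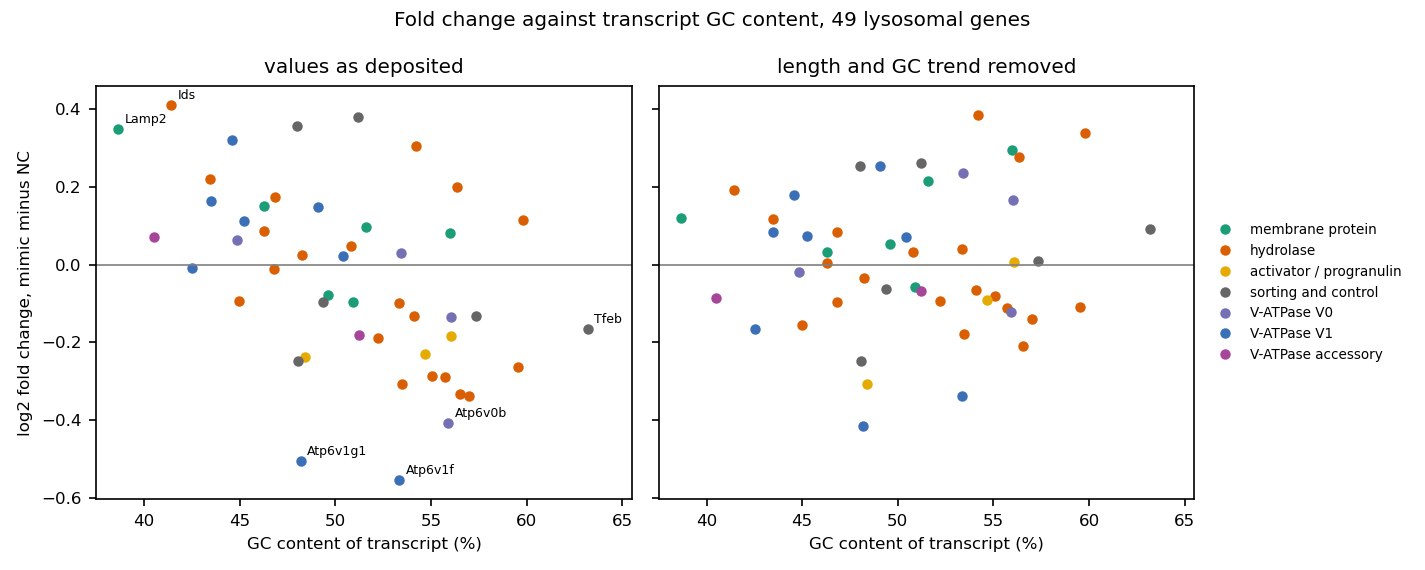
Log2 fold change (mimic minus control) of the 49 genes against the GC content of the longest coding transcript, as deposited (left) and after detrending for length and GC from each library (right); colours give the role. On the left GC-poor Ids and Lamp2 are near the top, as are Igf2r (51.2% GC) and Gnptab (48.0%). GC-rich Atp6v0b is near the bottom there, with Atp6v1g1 (48.2%) and Atp6v1f below it. On the right the slope is gone while Atp6v1g1 and Atp6v1f stay lowest.

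Promoter sequences are shown because the CLEAR element ties many of these genes to TFEB and TFE3. Promoters of 43 members were matched in RefSeq on GRCm38.p6, each from 250 bases before to 50 after a gene start. The E-box with its flanking T, TCACGTG, was searched on both strands, and it contains the plain E-box CACGTG. It was present in 15 of the 43 members (34.9%) and in 4.29% of 27025 genes with a promoter. The plain E-box was in the same 15 and in 8.09% of all genes. The longer palindrome TCACGTGA, which holds both, was in 8 members (18.6%, against 1.12%). Lamp1 held 4 copies, with CACGTG starting at −61, −45, −28 and −15 from the gene start, and no other member held more than 2. The windows below are 30 bases on the strand of the gene, with the element in capitals.
Lamp1, chr8:13159088-13159117 (plus strand): agggcaagataTCACGTGgtccagcgccca
Mcoln1, chr8:3500462-3500491 (plus strand): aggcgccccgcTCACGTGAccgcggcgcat
Cln3, chr7:126583340-126583369 (minus strand): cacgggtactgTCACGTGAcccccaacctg
Igf2r, chr17:12769696-12769725 (minus strand): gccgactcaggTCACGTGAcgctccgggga
Gla, chrX:134601215-134601244 (minus strand): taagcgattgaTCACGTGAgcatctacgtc
Atp6v0b, chr4:117887348-117887377 (minus strand): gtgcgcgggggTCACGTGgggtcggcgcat
Atp6v0d1, chr8:105566050-105566079 (minus strand): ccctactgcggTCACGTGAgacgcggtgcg
Atp6v1a, chr16:44139373-44139402 (minus strand): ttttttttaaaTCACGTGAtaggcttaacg
Fold changes of genes with the element went both ways. Members with TCACGTG gave a median log2 fold change of 0.06, the others −0.11, beside 0.04 for all tested genes. Atp6v0b and Atp6v1a both hold it and had log2 fold changes of −0.41 and 0.32. A match describes letters in a window and does not show that a factor binds there.

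Sites for the microRNA are shown because a mimic acts through them. The mature miR-125b-5p, encoded at GRCm38 chromosome 9, 41581940 to 41581961, and again at chromosome 16, 77646279 to 77646300, is given with its seed (bases 2 to 8) in capitals, and the sites below in members' 3′ untranslated regions (3′ UTRs) with the matching letters in capitals.
mmu-miR-125b-5p: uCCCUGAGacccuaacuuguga
Gla, 7mer-m8, chrX:134588520-134588549 (minus strand): agaaaccctgtCTCAGGGgaaaaaaatgag
Gla, 7mer-m8, chrX:134588257-134588286 (minus strand): caagtctctacCTCAGGGggtgggggcatc
Sgsh, 8mer, chr11:119344927-119344956 (minus strand): tctgagcaggtCTCAGGGAgtacccccaca
Neu1, 8mer, chr17:34935134-34935163 (plus strand): acagatacgaaCTCAGGGAactgagaaggc
Fuca1, 7mer-A1, chr4:135940088-135940117 (plus strand): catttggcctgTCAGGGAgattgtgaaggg
Gm2a, 8mer, chr11:55112256-55112285 (plus strand): atgaccctgaaCTCAGGGAcccacctgcct
M6pr, 8mer, chr6:122317289-122317318 (plus strand): tctcctgctggCTCAGGGAagtgtctgacc
The longest 3′ UTR of a coding transcript was searched on the sense strand for the 8mer CTCAGGGA, the 7mer-m8 CTCAGGG and the 7mer-A1 TCAGGGA, the shorter forms counted only outside an 8mer. A site was found in 6 of 49 members (12.2%), against 22.2% of 9312 tested genes with a 3′ UTR. An 8mer was in 4 members (8.16%, against 5.33%). Of those 4, Neu1 (−0.34), M6pr (−0.25) and Gm2a (−0.24) had estimates below 0 and Sgsh (0.20) above, as log2 fold changes. Sgsh had only 65 to 141 fragments per library, and its exons overlap Card14 on the opposite strand. Fuca1, with a 7mer-A1, stood at −0.31, and Gla, with a pair of 7mer-m8 sites, at 0.09. None of the 6 was called with all libraries at equal weight. Without control 3 limma called Neu1 lower, where 23.7% of all tested genes were called in either direction. With weighted libraries limma called Neu1, Fuca1, Gm2a and M6pr lower, where 51.9% of all tested genes were called in either direction. In all tested genes with an 8mer the median was 0.07, against 0.02 without any site.

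Further lysosomal genes were counted from lists fixed by symbol. Of 14 further hydrolases 13 were tested, with 5 estimates above 0 and 8 below and a median log2 fold change of −0.08. Galns, which desulfates keratan sulfate, read 9.49, 8.66 and 7.59 FPKM in controls and 4.78, 5.71 and 6.67 FPKM with the mimic, with no overlap. On the log2 scale the fold change was −0.52 (SE 0.15, limma adjusted p = 0.332), and −0.59 without control 3 (adjusted p = 0.0261). Acp5, an acid phosphatase, read 3.79, 4.07 and 5.63 FPKM and 2.25, 2.25 and 4.42 FPKM, a log2 fold change of −0.50 (SE 0.24), with mimic 3 inside the controls' range.

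Membrane and lipid transfer proteins outside the 49 had 9 estimates above 0 and 4 below among 13 tested (median 0.12), with Cd68 counted here and among the macrophage markers. The cholesterol exporters Npc1 and Npc2, which work in sequence, pointed apart. Npc1 read 4.56, 4.30 and 3.30 FPKM in controls and 5.95, 5.51 and 5.43 FPKM with the mimic, every mimic above every control (0.40, SE 0.14, limma adjusted p = 0.337). Npc2 read 92.6, 102 and 70.02 FPKM and 69.03, 65.97 and 74.3 FPKM, with control 3 among the mimics (−0.32, SE 0.16; −0.47 without control 3, limma adjusted p = 0.0124). Of the other pump genes 6 of 12 were tested, 4 above 0 and 2 below (median 0.10). The a3 subunit Tcirg1, the form of lysosomes in macrophages and osteoclasts, read 55.8, 48.2 and 51.8 FPKM and 37.1, 38.4 and 49.3 FPKM (−0.32, SE 0.14). The a2 subunit Atp6v0a2 read 5.93, 6.18 and 4.36 FPKM and 7.71, 7.09 and 6.73 FPKM (0.34, SE 0.15), with all mimics above all controls. Limma called neither (adjusted p = 0.384 for both).

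The Ragulator and Rag proteins, which tie mTORC1 to the lysosome and keep TFEB out of the nucleus when nutrients are plentiful, had 12 estimates above 0 and 4 below among 16 tested with their regulators (median 0.16). All 4 below 0, named after their values were seen, were Ragulator subunits: Lamtor1 (−0.21), Lamtor2 (−0.76), Lamtor4 (−0.58) and Lamtor5 (−0.30). The remaining subunit, Lamtor3, stood at 0.04. After detrending with all 6 libraries Lamtor1 turned to 0.10, Lamtor4 was −0.30 and Lamtor5 −0.17. Lamtor4 had only 31 to 127 fragments per library. Lamtor2, singled out after its values were seen, read 26.01, 29.3 and 11.2 FPKM in controls and 13.2, 12.8 and 9.61 FPKM with the mimic, with control 3 among the mimics. Its log2 fold change had an SE of 0.33 (limma adjusted p = 0.386), and was −1.16 without control 3 (adjusted p = 0.00608) and −0.49 after detrending. Fnip2, a partner of folliculin, read 29.7, 29.1 and 27.8 FPKM in controls and 37.1, 38.4 and 37.8 FPKM with the mimic, the groups not overlapping. As log2 fold change this was 0.38 (SE 0.10, limma adjusted p = 0.332), 0.35 without control 3 (adjusted p = 0.0160) and 0.25 after detrending for length and GC. The GTPase Rragb read 1.93, 1.74 and 3.67 FPKM and 3.83, 4.08 and 3.54 FPKM, with control 3 inside the mimics' range. The log2 fold change was 0.52 (SE 0.22), and 0.76 without control 3 (limma adjusted p = 0.00840). In none of these 4 lists was a gene called with all 6 libraries at equal weight.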

How the data were processed

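RNA from 6 libraries was sequenced, and the deposited values are FPKM per gene, made by the authors; fastp, HISAT2, DESeq2 and mm10 are named, without roles, per the submitters' processing notes (versions, strand setting and annotation: not given in the sources used here). Low values were whole fragments within 0.1 in 98.5% to 99.0% of cases, which gave the depth. All columns were mapped by name (0 left over). Genes with a mean of at least 1 FPKM were tested on log2(FPKM + 1) with limma 3.58.1 in R 4.3.3, with a pseudocount of 1 and Benjamini-Hochberg adjustment. A check on simulated data gave every library the same spread and planted changes larger than any member's estimate. It does not show how smaller changes, or libraries that stand apart, are handled. Libraries of the same number deviated together (r = 0.287, 0.183 and 0.339), but mimic 1 correlated more with control 2, at 0.308. The labels state no pairing. The estimates, SEs and p-values given above therefore come from fits without pairing, and a block by replicate number was run only as an alternative. The length and GC trend was removed with a loess fit (span 0.3) per library. Members, lists and tests were chosen with earlier results of these data known. Members described by library were those with the smallest p in each role, with Tfeb, Tfe3, Lamp1 and the highest of each role; others were named after their values were seen. In 15 members, exons overlap another annotated gene. Gene IDs were matched to GENCODE M21 (GRCm38), which held 16582 of them. RefSeq promoters of Atp6v1h, Atp6v1g1, Atp6v1c1, Atp6v1b2, Asah1 and M6pr were not used here. 3′ UTRs came from GENCODE M21.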

Additional observations from a re-analysis of the deposited data

How the results depend on the processing

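With all 6 libraries at equal weight 0 genes were called, and the range when leaving out each library in turn was 0 to 2412 for all tested genes and 0 to 13 for members, the highest without control 3. Without both libraries numbered 3 (chosen after seeing the data) 4377 genes and 29 members were called, and with array weights 5276 and 29. After detrending for length and GC without control 3, 253 genes and 2 members were called. With the replicate block 0 genes and 0 members were called, with all 6 libraries and also detrended, so it changed no call there; it was not run without control 3. The pseudocount of 0.1, no filter, upper-quartile scaling and voom kept direction and call for all 26 described members. Group medians moved for activators (0.0446 with the trend removed and control 3 left out), hydrolases (−0.17 without both libraries numbered 3) and sorting genes (0.0506 with the trend removed, also with the block). Among those 26, the trend-removed log2 fold change, the same with the replicate block, turned in sign for Atp6ap2 (−0.0853), Atp6v0c (0.17), Atp6v0e (−0.0205), Cd63 (0.0515), Grn (0.0070), Tfe3 (0.01) and Tfeb (0.0912); of the other 23 members it turned for Glb1 (0.04) and Manba (−0.03). With control 3 also left out it turned for Atp6v0b (0.0193), Atp6v0c (0.34), Cd63 (0.0802), Grn (0.11), Psap (0.0446), Scarb2 (−0.15) and Tfeb (0.11), and of the other members for Gla (−0.36), Manba (−0.23) and Gusb (0.01). Quantile normalisation turned Psap (0.0332). Leaving out each library gave −0.11 to 0.38 for Atp6ap2 and −0.0625 to 0.26 for Atp6v0e. The causes were not tested. Depth limits the members near 2 FPKM most, such as Sgsh.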
